A study of Mus musculus with 12 samples.

Results

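The genes described are 10 ATP-dependent chromatin remodeller ATPases, found by gene symbol among the 51912 genes of the count files from embryonic mouse cortex: Smarca2 and Smarca4 of the SWI/SNF family, Smarca1 and Smarca5 of the ISWI family, Chd3, Chd4, Chd5, Chd7 and Chd8 of the CHD family, and Ino80. All 10 were found and all 10 passed the filter on low counts. On GRCm38 (GENCODE M21) the genes span chr19:26605050-26778322 (Smarca2), chr9:21616169-21704230 (Smarca4), chrX:47809368-47892974 (Smarca1), chr8:80698507-80739497 (Smarca5) and chr2:119373042-119477687 (Ino80). The CHD genes span chr11:69343273-69369406 (Chd3), chr6:125095981-125130591 (Chd4), chr4:152338651-152390194 (Chd5), chr4:8690406-8867659 (Chd7) and chr14:52198151-52257780 (Chd8). The libraries came from 6 embryos labelled as Emx1-Cre Arid1a conditional mutants and 6 labelled as controls, all at embryonic day 15.5. The mutants comprised 2 embryos of litter 1 and 4 of litter 2, the controls 4 embryos of litter 1 and 2 of litter 2. By sex, 5 mutants were female and 1 was male, against 2 female and 4 male controls, so that genotype, litter and sex overlap in part. The labels state neither the strain nor the alleles that the controls carry.

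Remodeller ATPases use the energy of ATP to slide, eject or exchange nucleosomes, and each works as the motor of a larger complex. Smarca4 (BRG1) and Smarca2 (BRM) are alternative motors of the SWI/SNF (BAF) complexes, to which the product of Arid1a, the targeted gene, belongs as a large accessory subunit. ISWI motors space nucleosomes evenly, Chd3, Chd4 and Chd5 are alternative motors of the NuRD complex, which also holds histone deacetylases, and INO80 acts on nucleosomes that hold the variant H2A.Z. The Emx1 driver acts in the dorsal forebrain lineage, so interneurons, vessels and microglia in the dissected cortex keep Arid1a.

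Counts assigned to genes totalled 643197 to 3525121 in mutants and 1476478 to 2815042 in controls. Arid1a itself averaged 447 ± 51.0 CPM (normalised count, scaled by TMM library sizes) in the 6 mutants, against 510.0 ± 42.3 CPM in the 6 controls (SD), a fitted log2 fold change of -0.30 ± 0.0958 (SE) that missed the threshold in edgeR's quasi-likelihood test (adjusted p = 0.277). Counts were summed over the whole gene, and which exons were removed is not given in the labels, so this level is a weak check of genotype. All 11 markers of cortical identity were detected above the filter, with summed levels of 2433 to 3252 CPM in mutants, against 2895 to 4677 CPM in controls. Sox2 and Tubb3, which mark progenitors and neurons, were listed at 0 in every library. In GENCODE M21 both lie within the span of a larger gene on the same strand (Sox2 in Sox2ot, Tubb3 in Gm20388), so counting may leave out their reads, which was not tested, and these zeros are no measured absence. Control 2 stood apart, with the lowest score of all libraries for radial glia and cycling progenitors (-1.72), intermediate progenitors (-2.0) and cortical identity (-0.73). It also had the highest score of all libraries for ganglionic eminence and striatum (1.38). Each score is the mean z-score of the marker list. In control 5, choroid plexus markers summed to 174 CPM, against 0.856 to 5.14 CPM in mutants.

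The sequences just upstream of the RefSeq start are shown for the SWI/SNF and the ISWI pair, because the ratio within the first pair had the smallest p between genotypes and the ratio within the second differed between litters. Each is 250 bases, 5′ to 3′ on the gene's own strand, from RefSeq on GRCm38.p6, with every CG dinucleotide in capitals. Smarca4 lies at chr9:21615919-21616168 (+), Smarca2 at chr19:26604910-26605159 (+), Smarca5 at chr8:80739460-80739709 (-) and Smarca1 at chrX:47892614-47892863 (-).
Smarca4: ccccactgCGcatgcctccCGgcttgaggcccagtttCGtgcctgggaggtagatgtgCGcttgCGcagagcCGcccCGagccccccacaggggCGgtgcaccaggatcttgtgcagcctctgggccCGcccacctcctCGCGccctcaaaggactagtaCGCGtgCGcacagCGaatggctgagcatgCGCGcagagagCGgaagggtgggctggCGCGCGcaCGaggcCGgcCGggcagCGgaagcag
Smarca2: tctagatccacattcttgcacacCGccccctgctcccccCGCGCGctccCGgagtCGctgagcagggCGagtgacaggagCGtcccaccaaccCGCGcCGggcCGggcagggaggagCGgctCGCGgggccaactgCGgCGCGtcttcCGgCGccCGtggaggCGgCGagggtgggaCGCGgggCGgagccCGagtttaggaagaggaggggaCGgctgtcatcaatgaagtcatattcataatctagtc
Smarca5: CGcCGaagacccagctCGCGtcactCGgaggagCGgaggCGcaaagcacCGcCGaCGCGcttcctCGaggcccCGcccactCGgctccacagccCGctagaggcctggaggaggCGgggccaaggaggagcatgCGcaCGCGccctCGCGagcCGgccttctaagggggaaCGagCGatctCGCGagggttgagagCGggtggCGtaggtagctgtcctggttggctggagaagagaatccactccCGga
Smarca1: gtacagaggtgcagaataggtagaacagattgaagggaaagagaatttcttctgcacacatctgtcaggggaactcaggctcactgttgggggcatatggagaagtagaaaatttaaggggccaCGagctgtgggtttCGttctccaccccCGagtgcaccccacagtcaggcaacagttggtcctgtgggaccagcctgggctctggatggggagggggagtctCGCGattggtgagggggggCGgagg
Smarca4, Smarca2 and Smarca5 had CG-dense upstream windows with 25, 28 and 29 CG dinucleotides, and Smarca1 had 6. The median over 32851 such windows of the mouse table was 6, so the X-linked Smarca1 matched the typical window and its paralogue did not. The letters GGGCGG, read on either strand, occurred 3 times for Smarca4, 2 times for Smarca2 and once for each ISWI gene, and are present in 32.7% of all windows. CCAAT on either strand was found for Smarca1 and not for the other 3 (33.8% of windows), and TATAAA on either strand in none of these windows (12.4% of all windows). RefSeq starts were listed for 8 of the 10 genes, and those of Smarca2, Smarca5 and Smarca1 lie inside the gene as GENCODE draws it. The whole Smarca1 window lies inside that gene, while most of the Smarca5 window lies upstream of the GENCODE start at chr8:80739497. The CG counts of these paralogues were thus taken at unlike positions relative to the GENCODE starts.

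All 10 ATPases were transcribed in every library, and their order was led by Smarca4. Levels between genes were compared as mean CPM per kb of merged exons over the 12 libraries. Smarca4 had 88.7 CPM per kb, Chd3 62.4 and Chd4 40.1, and each of these stood above the next gene in 12 of 12 libraries. Chd7 followed with 19.9 and Smarca2 with 18.2 CPM per kb, an order that held in 9 of 12 libraries. Ino80 had 13.6, Chd8 10.9, Smarca5 10.01 and Smarca1 8.74 CPM per kb, with Smarca5 above Smarca1 in 8 of 12 libraries. Chd5 was lowest at 6.01 CPM per kb and lay under Smarca1 in 11 of 12 libraries. Among all tested genes, 97.89% had a lower level per kb than Smarca4 and 42.77% a lower one than Chd5. Per kb of the longest transcript instead, Smarca2 stood at 43.9 and above Chd7 at 26.9, and Chd8 at 21.2 stood above Ino80 at 14.5.

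**Figure D1:**
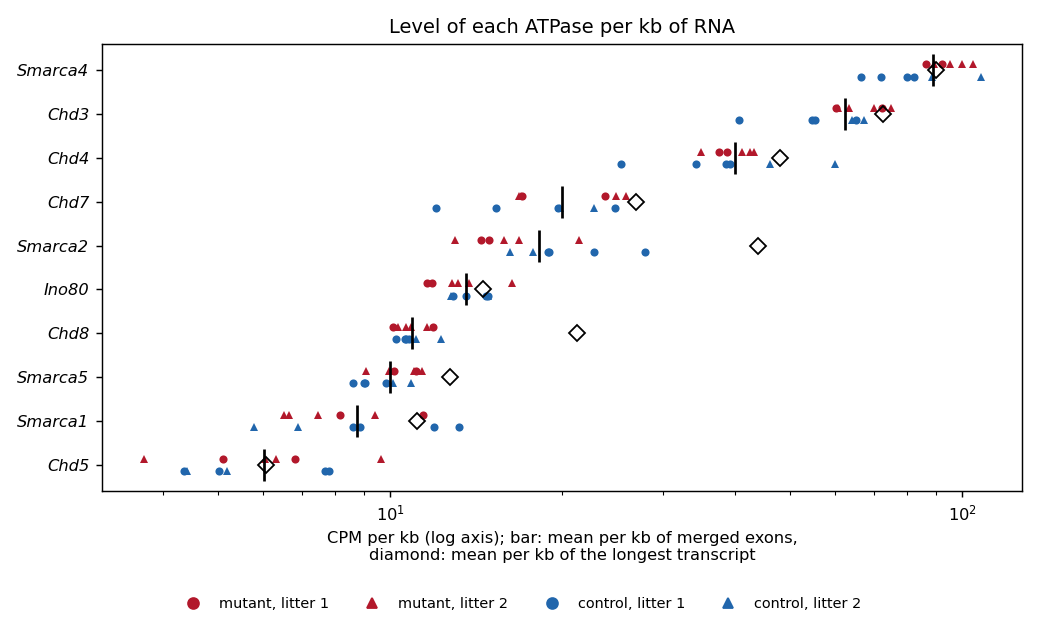
Level of each ATPase in CPM per kb of merged exons on a log axis, with one point per library (red mutant, blue control, circles litter 1, triangles litter 2); black bars mark the mean over 12 libraries, open diamonds the mean per kb of the longest transcript. Smarca4 (88.7), Chd3 (62.4) and Chd4 (40.1) lie above the other 7 genes in merged-exon means, whose points overlap with those of their neighbours, and the choice of length moves Smarca2 and Chd8 most.

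The SWI/SNF motors were both abundant and their mutant and control values overlapped. Smarca4 had 559 CPM in the lowest mutant, a median of 607 and 676 in the highest, against 432, 526 and 697 CPM in controls. All 6 mutants lay above the control mean of 537 ± 93.2 CPM, and their own mean was 613 ± 43.4 CPM (SD, 6 embryos a group). Smarca2 ran the other way in unadjusted values, with 185, 219 and 306 CPM as lowest, median and highest mutant against 231, 270 (269.9) and 398 CPM in controls, and 4 of 6 mutants lay below every control. With litter and sex in the model, neither difference passed: the log2 fold change, mutant over control, was 0.04 ± 0.0991 for Smarca4 (95% interval -0.17 to 0.25, adjusted p = 0.978) and -0.15 ± 0.140 for Smarca2 (-0.45 to 0.14, adjusted p = 0.845). Without the litter and sex terms Smarca2 stood at -0.35 (adjusted p = 0.293), and it was at -0.38 in litter 1 alone and 0.01 in litter 2 alone. In whole tissue, fewer cells of a type and less RNA per cell cannot be told apart, for these and all other genes.

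The ISWI motors were lower in level, and Smarca1 was the more variable of the pair. Smarca5 (SNF2H), the motor of most ISWI complexes in dividing cells, had 70.6, 82.3 and 88.3 CPM as lowest, median and highest mutant, against 66.8, 73.3 and 84.5 CPM in controls. Smarca1 (SNF2L), which is known for its expression in neurons, had 39.8, 47.9 and 69.9 CPM in mutants, against 35.4, 53.4 and 80.5 CPM in controls. The ranges overlapped for both genes, with 3 of 6 mutants above every control for Smarca5 and 0 of 6 for Smarca1. The fitted log2 fold change was 0.06 ± 0.112 for Smarca5 (adjusted p = 0.955) and 0.18 ± 0.179 for Smarca1 (adjusted p = 0.859), mutant over control. An X-linked gene, Smarca1 rested on as few as 31 counts in one library.

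Among the NuRD motors, Chd4 had the lowest p of the 10 genes in the genotype comparison, and it did not pass adjustment. Chd4 (Mi-2β), a widely expressed NuRD motor, had 279.97, 320.3 and 347 CPM as lowest, median and highest mutant, against 203, 312 and 481 CPM in controls. The mutant values thus lay inside the wider control range, and the group means were close: mutants averaged 318 ± 25.9 CPM and controls 325 ± 94.1 CPM. In edgeR's fit with litter and sex, the log2 fold change was -0.30 ± 0.120 (95% interval -0.55 to -0.05, adjusted p = 0.437). It was -0.03 with neither term, -0.02 in litter 1 alone, -0.46 in litter 2 alone (adjusted p = 0.115) and -0.17 without control 6, the library with the highest Chd4. Whether the difference depends on litter was tested as an interaction, which gave -0.39 ± 0.203 (adjusted p = 0.726).

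Chd3 (Mi-2α) was the more abundant NuRD motor, and Chd5, which is largely restricted to neurons, the least abundant. Chd3 had 508, 563 and 634 CPM in mutants, against 343, 504 and 569 CPM in controls, and 3 of 6 mutants lay above every control. Chd5 had 35.5, 59.1 and 92.5 CPM in mutants, against 41.8, 48.9 and 74.9 CPM in controls, a wide spread in both groups. Neither passed, with a log2 fold change of 0.11 ± 0.128 for Chd3 (adjusted p = 0.896) and 0.40 ± 0.221 for Chd5 (95% interval -0.08 to 0.87, adjusted p = 0.674). The Chd5 value was 0.08 with neither litter nor sex in the model, 0.24 without mutant 4, the library with the highest Chd5, and 0.72 without control 6.

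Chd7 and Chd8, which bind enhancers and promoters and are disease genes of CHARGE syndrome and autism, differed in how steady they were. Chd7 had 231, 281 and 357 CPM as lowest, median and highest mutant, against 166, 272 and 341 CPM in controls. Chd8 had 167, 178 and 196 CPM in mutants, against 169, 177 and 202 CPM in controls. Chd8 was thus almost level over all 12 embryos, and Chd7 was not. Log2 fold changes were -0.10 ± 0.196 for Chd7 (adjusted p = 0.967) and -0.02 ± 0.0911 for Chd8 (95% interval -0.22 to 0.17, adjusted p = 0.988).

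Ino80, the motor of the INO80 complex, had 78.7, 88.3 and 111 CPM as lowest, median and highest mutant, against 86.9, 96.2 and 101 CPM in controls. Its log2 fold change was -0.10 ± 0.118 (95% interval -0.35 to 0.15, adjusted p = 0.908). The shallow libraries had low values of this gene: across the 12 libraries its log2 CPM had a Pearson r of 0.68 with log2 depth, given as a description, and the part of depth in its level was not tested further.

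**Figure D2:**
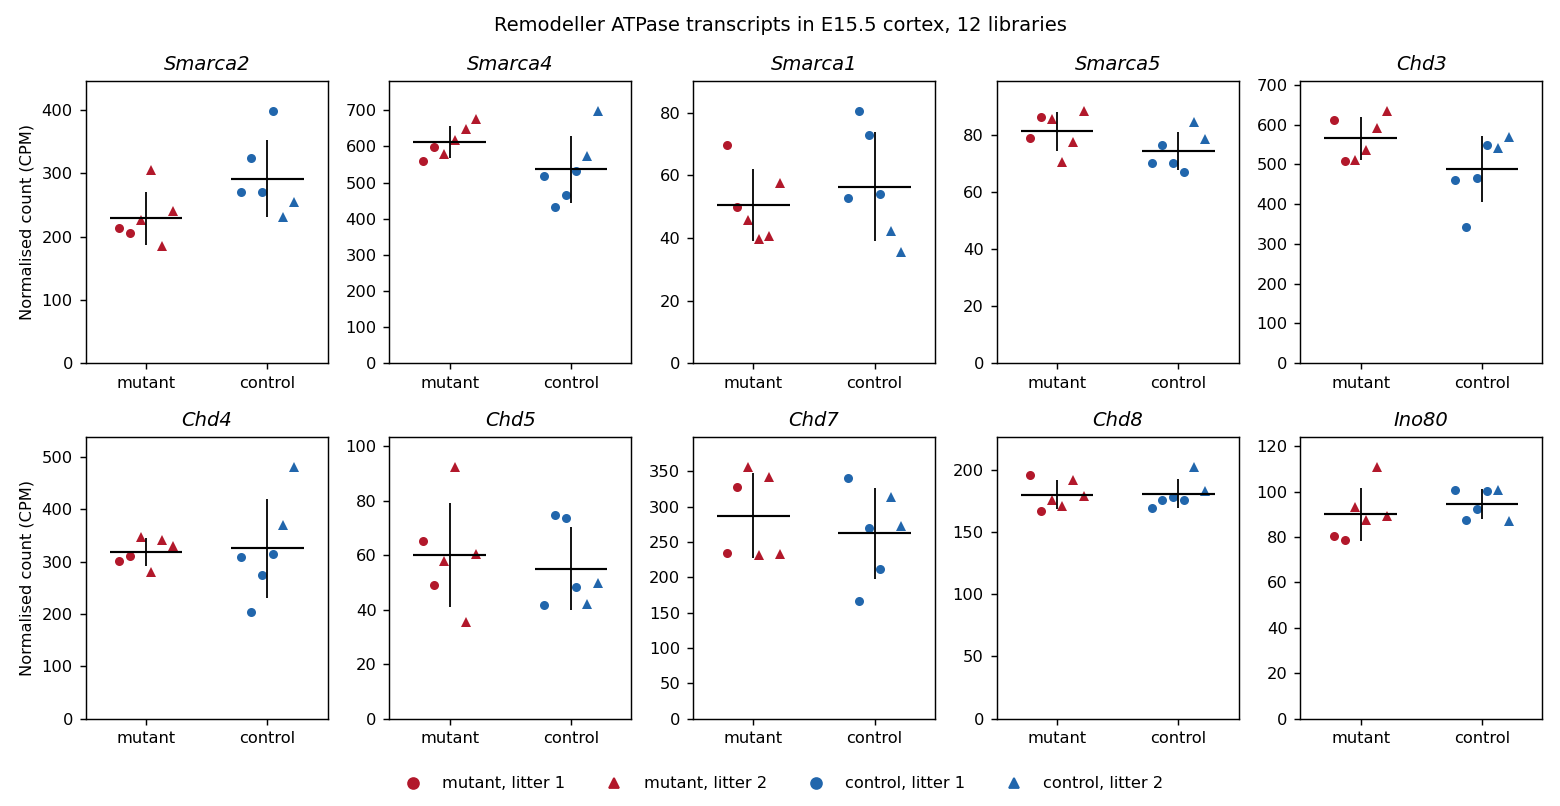
CPM of each of the 10 ATPases in every library, mutants on the left and controls on the right; circles are litter 1, triangles litter 2, horizontal bars the group mean and vertical bars 1 SD (n = 6 each). For every gene the mutant and control points overlap, as in Chd8 (mutants 167 to 196, controls 169 to 202 CPM), while Chd4 is more spread among controls (203 to 481 CPM).

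Taking the 10 genes together, 0 were called between mutants and controls at an adjusted p under 0.05 in edgeR, where 0.215% of the 10678 genes tested were called. DESeq2 and limma-voom also called 0 of the 10, with 0.89% and 0.225% of all genes called. At an unadjusted p under 0.05 the count was 1 of 10 (Chd4), against 8.78% of all genes. For 0 of the 10 were mutants and controls separated without overlap, a pattern found in 1.26% of tested genes. The fitted changes were split, 5 positive and 5 negative, with a median of 0.01 against -0.000885 over all genes. At equal depth 2 were positive and 8 negative, with a median of -0.04. In the edgeR fit at full depth with litter and sex, no 95% interval of the 10 reached a 2-fold change (a log2 of 1). This held in either direction, and the widest interval was that of Chd5. The upper limit for Chd5 was 1.18 at equal depth, 1.116 in litter 1 alone and 1.104 in litter 2 alone.

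Between litters, Smarca1 was lower and Chd4 and Smarca4 higher in litter 2 at an unadjusted p under 0.05, and none passed adjustment in edgeR. In the same model, 0 of 10 passed for litter 2 against litter 1, where 1.31% of all genes were called, and 3 of 10 had an unadjusted p under 0.05, against 15.4% of all genes. Smarca1 had 35.4, 41.5 and 57.6 CPM as lowest, median and highest embryo of litter 2, against 50.02, 62.0 and 80.5 CPM in litter 1. The log2 fold change was -0.56 ± 0.154 (95% interval -0.88 to -0.23, adjusted p = 0.0829). DESeq2, which called 2.46% of all genes, called this gene (adjusted p = 0.0435). So did edgeR with no filter (adjusted p = 0.00742, with 2.44% of all genes called) and without control 4 (adjusted p = 0.0495, with 2.02%). Limma-voom, with 1.18% of all genes called, called 0 of 10.

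Chd4 had 279.97, 344 and 481 CPM in litter 2, against 203, 305 and 315 CPM in litter 1 (log2 fold change 0.36 ± 0.105, adjusted p = 0.102). With no filter, where edgeR called 2.44% of all genes, the adjusted p of Chd4 was 0.00494. Smarca4 had 573, 632 and 697 CPM in litter 2, against 432, 526 and 598 CPM in litter 1 (0.25 ± 0.0874, adjusted p = 0.171). The litters overlapped for all 10 genes, where 1.66% of tested genes had litters that did not overlap. The other 7 ran from -0.13 (Chd5) to 0.16 (Chd7), with a median over the 10 of 0.10, against -0.01 over all genes. Control 2, of litter 1, has low progenitor and high striatum markers. Without it, Smarca1 was at -0.50 (adjusted p = 0.116), Chd4 at 0.30 (adjusted p = 0.113) and Smarca4 at 0.23 (adjusted p = 0.229). Dam, dissection and time of collection cannot be told apart from litter.

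Between sexes, 0 of 10 passed for females against males, where 0.00937% of genes were called by edgeR, 1 gene in all. DESeq2 called 0 of 10 and 0.0187% of all genes, and limma-voom 0 of 10 and 0.00937%. An unadjusted p under 0.05 was seen for 3 of 10, against 6.95% of all genes. Without mutant 4, the 1 male mutant, the count was 1 of 10, and 345 of all 11052 genes tested. Without the 2 shallowest libraries, mutant 4 among them, it was 0 of 10, and 333 of all 11205 genes. Leaving out any other single library gave 2 to 4 of 10. Chd4 had 301, 330 (329.9) and 481 CPM as lowest, median and highest female, against 203, 279.97 and 370 (370.2) CPM in males (log2 fold change 0.34 ± 0.118, adjusted p = 0.677). Chd5 had 35.5, 49.7 and 65.3 CPM in females, against 42.2, 73.8 and 92.5 CPM in males (-0.52 ± 0.209, adjusted p = 0.711). Smarca2 had 185, 225 and 270 (270.0) CPM in females, against 231, 306 and 398 CPM in males (-0.32 ± 0.133, adjusted p = 0.711). The sexes overlapped in all 3. Without mutant 4 the log2 fold change was 0.33 for Chd4, -0.32 for Chd5 and -0.19 for Smarca2. X-linked Smarca1 had a log2 fold change of -0.21 ± 0.171 (adjusted p = 0.825) and Chd7 of 0.37 ± 0.189 (adjusted p = 0.748).

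The genotype difference itself was tested for a dependence on litter, and 0 of 10 passed, as did 0 of all genes by edgeR (0.0% called). At an unadjusted p under 0.05 the counts were 0 of 10 and 7.27% of all genes, and DESeq2 called 0 of 10 and 6 genes in all (0.0562%). In the edgeR fit Smarca2 had the largest interaction of the 10, at 0.41 ± 0.248 (adjusted p = 0.769). Without 1 library it ran from 0.09 (without control 5) to 0.62 (without control 6). Without control 5 every other motor except Chd8 (-0.06) had an interaction larger in size, led by Ino80 (0.53) and Chd4 (-0.47). Smarca1 was larger than Smarca2 without mutant 1 (0.54 against 0.44) and without control 1 (0.46 against 0.43). Chd4 was larger in size than Smarca2 without control 4 (-0.46 against 0.33).

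**Figure D3:**
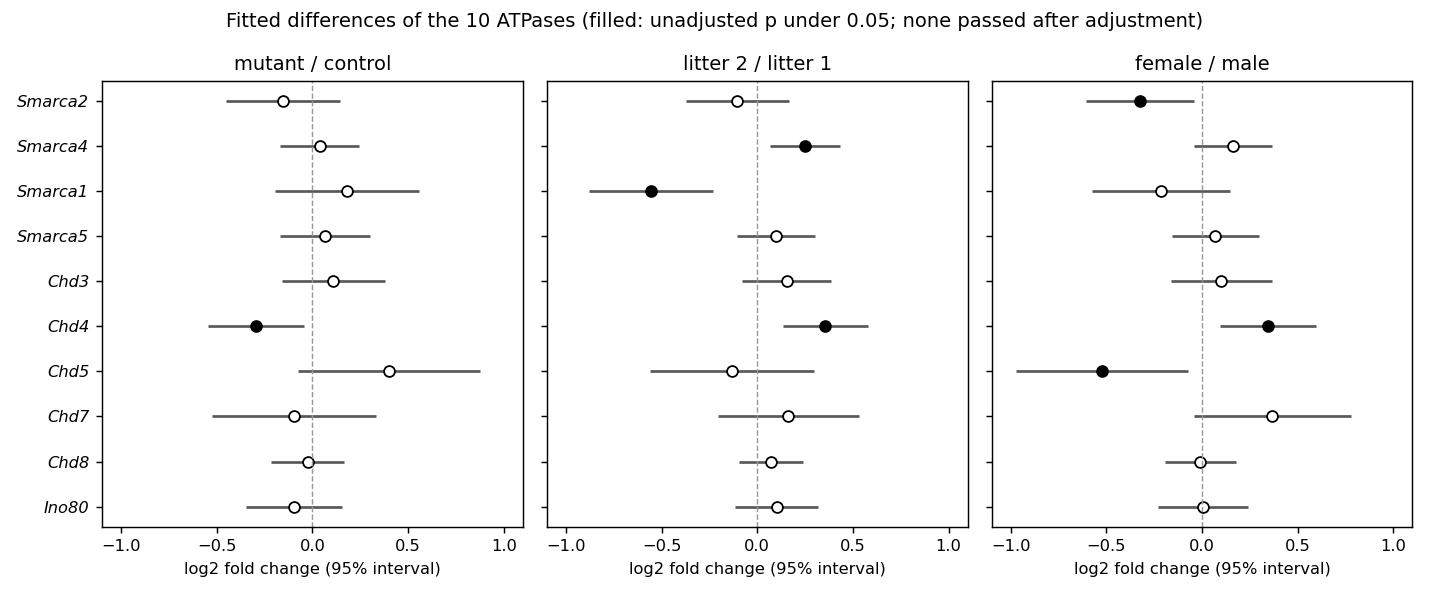
Log2 fold change (x axis, points) with 95% interval (lines) for the 10 ATPases in 3 contrasts of one edgeR model: mutant over control, litter 2 over litter 1, and female over male. Filled points have an unadjusted p under 0.05; Chd4 is filled in all 3 panels, at -0.30, 0.36 and 0.34, and no point passed after adjustment over 10678 genes.

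A ratio of 2 genes within a library does not depend on library scaling. For this, 5 ratios of paralogous motors were compared between genotypes by an exact permutation test over 924 splits, two-sided. The Smarca2/Smarca4 ratio was 0.375 ± 0.0696 in mutants, against 0.561 ± 0.165 in controls (SD, 6 embryos a group). On the log2 scale the difference was -0.55 with an exact p of 0.0238, which did not pass after adjustment over the 5 ratios (adjusted p = 0.119). In mutants 3 of 6 ratios were below every control. The difference was -0.83 in litter 1 and -0.03 in litter 2. Permuting genotype within litter gave an exact p of 0.0267 over 225 splits, which was not adjusted over the 5 ratios. This test does not account for sex. Permuting genotype within sex gave an exact p of 0.0762 over 105 splits (adjusted p = 0.214), and the difference was -0.32 among females alone (5 mutants, 2 controls, exact p = 0.190) and -0.19 ± 0.171 (SE, no test) in a least-squares fit with litter and sex. The 1 male mutant, mutant 4, had the highest mutant ratio (0.496). In litter 1 the 2 mutants had ratios of 0.380 and 0.343, against 0.521, 0.751, 0.578 and 0.747 in the 4 controls. In litter 2 the 4 mutants had 0.389, 0.496, 0.286 and 0.355, against 0.403 and 0.364 in the 2 controls. All mutants and the 2 controls of litter 2 thus lay below the 4 controls of litter 1. Mutant 4 (0.496) lay close to the lowest of those (0.521) and above the litter 2 controls.

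None of the other 4 ratios passed either. Chd3/Chd4 was 1.78 ± 0.210 in mutants and 1.55 ± 0.213 in controls (log2 difference 0.21, exact p = 0.0952, adjusted p = 0.238). The Chd3/Chd4 difference was 0.14 in litter 1, 0.41 in litter 2 and 0.40 among females alone (exact p = 0.143). Permuting genotype within sex gave an exact p of 0.0857 (adjusted p = 0.214). In a least-squares fit with litter and sex it was larger, at 0.40 ± 0.0953 (SE, no test). Smarca1/Smarca5 was 0.623 ± 0.136 in mutants, against 0.768 ± 0.258 in controls (adjusted exact p = 0.516). Chd5/Chd4 was 0.193 ± 0.0767 in mutants, against 0.191 ± 0.106 in controls (adjusted exact p = 0.799), and Chd7/Chd8 was 1.60 ± 0.363 in mutants, against 1.45 ± 0.360 in controls (adjusted exact p = 0.603). In the fit with litter and sex, the log2 difference was 0.71 ± 0.333 for Chd5/Chd4 (SE, no test). It was 0.08 ± 0.184 for Smarca1/Smarca5 and -0.07 ± 0.237 for Chd7/Chd8. The same ratios were also compared by litter, a comparison added with the data in view. Smarca1/Smarca5 was 0.450 to 0.653 in litter 2, against 0.580 to 1.06 in litter 1, a log2 difference of -0.65 with an exact p of 0.00433 and an adjusted p of 0.0216 (n = 6 each). It remained past the threshold without each library in turn and when litter was permuted within genotype (adjusted p = 0.0444), and was -0.54 (adjusted p = 0.173) when every library was thinned to the depth of the shallowest. By litter, Smarca2/Smarca4 differed by -0.49 (exact p = 0.0649, adjusted p = 0.162). With only 2 litters, these p values by litter measure the spread between embryos and not between litters.

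**Figure D4:**
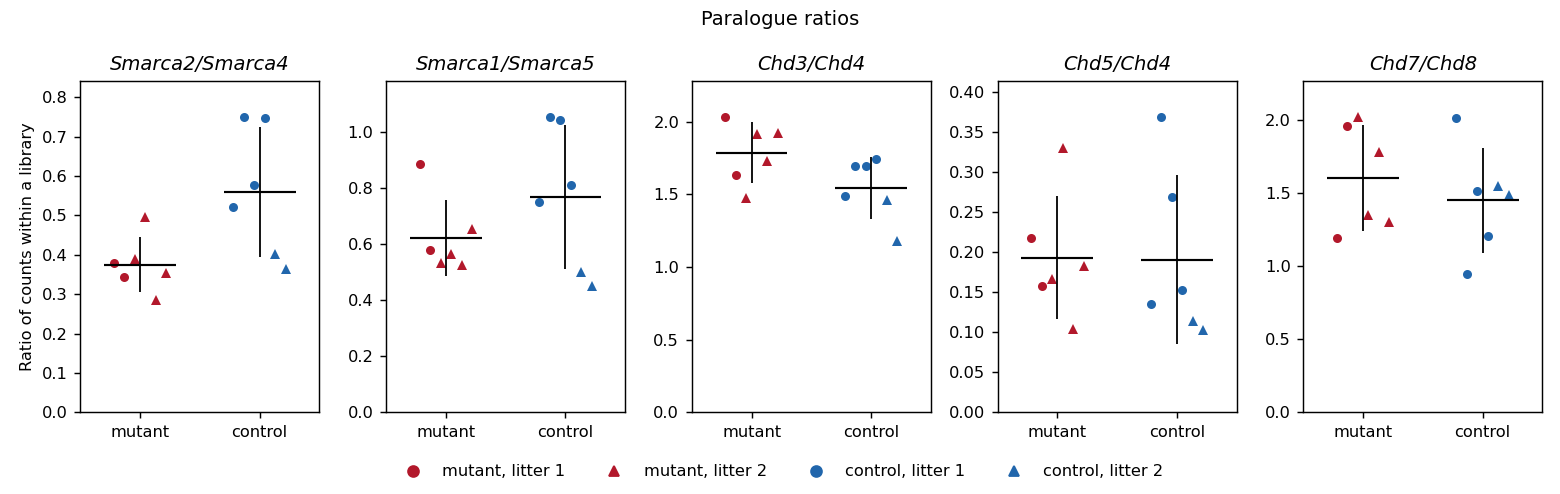
Ratio of the counts of paralogous motors within each library, mutants on the left and controls on the right, with litter by symbol, the mean as a horizontal bar and 1 SD as a vertical bar (n = 6 each). Smarca2/Smarca4 averages 0.375 in mutants and 0.561 in controls, with the 2 litter 2 controls among the mutants; in Smarca1/Smarca5 the litter 2 triangles lie at 0.450 to 0.653.

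The partner subunits of these motors were examined as whole lists. Between genotypes edgeR and limma-voom called 0 genes of any list, with 0.215% and 0.225% of all genes called. DESeq2 called 1, Dpf3, with 0.89% of all genes called. At an unadjusted p under 0.05 in edgeR the counts were 3 of 26 SWI/SNF partners, 1 of 10 ISWI, 1 of 12 NuRD, 0 of 12 INO80 and 0 of 20 other SNF2-type ATPases, against 8.78% of all genes. Of 26 SWI/SNF partners tested, 13 had positive and 13 negative fitted changes (median -0.02, against -0.000885 over all genes). The scaffold subunits Smarcc1 and Smarcc2 had 401 ± 22.2 and 310 (310.5) ± 25.1 CPM in mutants, against 365 ± 32.7 and 295 ± 50.4 CPM in controls. Dpf3, a BAF subunit of neurons singled out here after its value was seen, had the smallest p of the lists, with 51.8 ± 11.2 CPM in mutants, against 76.7 ± 27.9 CPM in controls (log2 fold change -0.96 ± 0.203, adjusted p = 0.0740 in edgeR and 0.0188 in DESeq2).

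ISWI partners were tested for 10 genes, of which 1 had a positive and 9 a negative fitted change (median -0.14). The reader subunit Bptf had 305 ± 19.0 CPM in mutants, against 316 ± 37.0 CPM in controls, and Baz1b 256 ± 22.8 CPM in mutants, against 247 ± 22.7 CPM in controls. NuRD partners numbered 12, with 3 positive and 9 negative (median -0.07). Mbd3, which links NuRD's motor and deacetylase parts, had 95.04 ± 6.81 CPM in mutants, against 83.3 ± 20.6 CPM in controls, and Gatad2b 244 ± 18.1 CPM in mutants, against 257 ± 13.8 CPM in controls. INO80 partners passed the filter for 12 of 13, with 5 positive and 7 negative (median -0.05). Ruvbl1 had 22.2 ± 4.66 CPM in mutants, against 23.7 ± 2.997 CPM in controls, and Actr5 14.4 ± 1.84 CPM in mutants, against 13.1 ± 2.16 CPM in controls.

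Other SNF2-type ATPases were tested for 20 genes, 8 positive and 12 negative (median -0.01). Chd2 had 371 ± 35.8 CPM in mutants, against 348 ± 32.4 CPM in controls, and Chd6 346 ± 15.05 CPM in mutants, against 326 ± 10.2 CPM in controls. Chd1, which follows elongating polymerase, had 227 ± 13.6 CPM in mutants, against 222 ± 20.02 CPM in controls, and Chd9 249.997 ± 10.8 CPM in mutants, against 272 ± 12.2 CPM in controls. Ep400 and Srcap, which deposit H2A.Z, had 284 ± 29.6 and 28.7 ± 5.65 CPM in mutants, against 273 ± 25.3 and 23.7 ± 3.99 CPM in controls. Atrx, which deposits H3.3 at repeats, had 426 ± 14.8 CPM in mutants, against 445 ± 30.03 CPM in controls, and Hells, a helicase needed for DNA methylation, 55.9 ± 10.03 CPM in mutants, against 45.2 ± 9.85 CPM in controls. Over the 16 partners and ATPases chosen whatever their result, the fitted change ran from -0.17 (Bptf) to 0.28 (Srcap), 7 of them positive, with no adjusted p under 0.642.

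By litter, edgeR called 1 gene of these lists, among the 20 other SNF2-type ATPases, where 1.31% of all 10678 genes were called. Rad54l, a translocase of homologous recombination, had 16.7 ± 3.65 CPM in litter 2 and 7.51 ± 3.42 CPM in litter 1 (log2 fold change 1.08 ± 0.256, adjusted p = 0.0440 in edgeR). DESeq2 gave it no adjusted p and limma-voom missed the threshold (adjusted p = 0.0569). Both called 0 genes of these lists by litter, where they called 2.46% and 1.18% of all genes. The edgeR call was held in 6 of 18 alternatives with an adjusted p and lost in 12, among them without control 5 (0.79, adjusted p = 0.295) and without mutant 1 (0.96, adjusted p = 0.118). All 10 ISWI partners had a positive fitted change in litter 2 against litter 1 (median 0.22), 6 of them with an unadjusted p under 0.05, against 15.4% of all genes, and 0 were called. Unadjusted counts in the other lists were 8 of 26 SWI/SNF partners, 2 of 12 NuRD, 1 of 12 INO80 and 6 of 20 other ATPases. The same 10 ISWI partners were all positive for females over males and all negative for the interaction of litter and genotype. Positive changes by litter numbered 20 of 26 for SWI/SNF partners, 8 of 12 for NuRD, 6 of 12 for INO80 and 16 of 20 for the other ATPases. Genes within a list share libraries and are not independent.

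How steady the motors were over the 12 embryos differed by gene. The coefficient of variation of CPM was 6.09% for Chd8 and 9.32% for Smarca5, and 26.9% for Smarca1 and 28.9% for Chd5. The highest library was 1.21 times the lowest for Chd8, and 2.60 times for Chd5. Counting error adds more to the rarer genes, and edgeR's dispersion allows for it, with litter, sex and genotype in the model. Of genes within 0.5 log2 CPM, 7.59% had a lower dispersion than Chd8 and 8.59% a lower one than Smarca5. The share was 92.1% for Chd5, 90.5% for Chd7, 83.7% for Smarca2, 78.1% for Smarca1, 74.2% for Chd4 and 68.3% for Chd3. In the dispersion itself, without regard to level, Smarca1 stood near Chd3, with a biological coefficient of variation of 0.144 for Smarca1 and 0.142 for Chd3.

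The 10 genes did not vary as one group. Over the 45 pairs, Pearson r of log2 CPM across the 12 libraries ran from -0.77 to 0.82 with a median of 0.05. Among the 5 pairs of paralogous motors, the highest r was that of Chd3 and Chd4 (r = 0.69, permutation p = 0.0270, adjusted p = 0.135, and Spearman rho = 0.51, permutation p = 0.0935, adjusted p = 0.223). It was 0.36 without control 2 and mutant 6, the libraries farthest from the median of Chd3, and so rests on them. Within mutants it was 0.09 and within controls 0.90. Chd5 and Chd4 ran in opposite directions (r = -0.56, permutation p = 0.0557, adjusted p = 0.139; rho = -0.62, permutation p = 0.0375, adjusted p = 0.187), at -0.74 in mutants and -0.67 in controls. The remaining pairs had r of -0.48 (Smarca2 and Smarca4), -0.17 (Smarca1 and Smarca5) and 0.08 (Chd7 and Chd8), with adjusted permutation p values of 0.196, 0.745 and 0.813.

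Embryos differed in the levels of cell type markers, and the motors moved with some of these scores. All 9 marker lists with at least 2 tested genes were set against the 10 motors, 90 relations chosen after the values were seen, with p adjusted over all 90. Of these, 2 passed for Pearson's r and 0 for Spearman's rho. Smarca4 moved with the 4 intermediate progenitor markers (r = 0.86, permutation p = 0.00017, adjusted p = 0.0153; rho = 0.84, permutation p = 0.0011, adjusted p = 0.0823). Without control 2 and control 3, the libraries farthest from the median score, r was 0.63. It was 0.58 in litter 2, 0.97 in litter 1, 0.17 in mutants and 0.93 in controls, so the relation was not seen within mutants. The list summed to 157 to 239 CPM in mutants, against 59.3 to 222 CPM in controls, with no marker at 0. Smarca4 was not alone in this: the same score had r = 0.78 with Chd3, 0.75 with Chd4 and -0.71 with Smarca1. Each of these missed the threshold (adjusted permutation p = 0.0773). Without control 2 and control 3 they were 0.20, 0.34 and -0.33. Smarca4 itself had r = 0.82 with Chd3 and 0.78 with Chd4.

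Smarca1 moved with the oligodendrocyte precursor score, which rests on 2 tested genes, Pdgfra and Cspg4 (r = 0.84, permutation p = 0.00069, adjusted p = 0.031; rho = 0.78, permutation p = 0.00428, adjusted p = 0.0963). Pericytes and mesenchyme express both genes too. The relation was 0.79 without mutant 5 and control 6, 0.61 in litter 2, 0.81 in litter 1, 0.74 in mutants and 0.94 in controls. The full list of 5 markers summed to 13.7 to 39.0 CPM in mutants, against 15.2 to 43.1 CPM in controls. Smarca1 also had r = 0.64 with the ganglionic eminence and striatum score (permutation p = 0.0274, adjusted p = 0.107, and rho = 0.65, adjusted p = 0.156). Without mutant 6 and control 2, r was 0.50. That relation was 0.78 in litter 2, 0.89 in litter 1, 0.81 in mutants and 0.65 in controls. With this score as a covariate in edgeR, the log2 fold change of Smarca1 between genotypes was 0.03 (adjusted p = 0.991), against 0.18 without it. Other scores had relations with Smarca1 of like size: r = -0.71 for intermediate progenitors (adjusted permutation p = 0.0773), 0.66 for red blood cells and 0.63 for postmitotic neurons. The last 2 each had an adjusted permutation p of 0.107. Only the striatum score was used as a covariate. The part of any of these cells in the Smarca1 differences was not tested.

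Chd4 and Chd7 were high in embryos with high radial glia and cycling progenitor scores, and missed the adjusted threshold. Chd4 had r = 0.79 (permutation p = 0.00255, adjusted p = 0.0587; rho = 0.68, permutation p = 0.0188, adjusted p = 0.141), and 0.47 without mutant 4 and control 2. Chd7 had r = 0.78 (permutation p = 0.00261, adjusted p = 0.0587; rho = 0.62, permutation p = 0.036, adjusted p = 0.19), and 0.51 without the same libraries. Without control 2 alone r was 0.56 for Chd4 and 0.59 for Chd7. It was positive within each litter and genotype, at 0.82 and 0.67 in litter 2, 0.89 and 0.81 in litter 1, 0.45 and 0.57 in mutants, and 0.91 and 0.87 in controls for Chd4 and Chd7. The list summed to 972 to 1507 CPM in mutants, against 817 to 1552 CPM in controls, with Sox2 listed at 0.

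Smarca2 and Chd5 ran the other way. Smarca2 had r = -0.68 with the same progenitor score (permutation p = 0.0148, adjusted p = 0.102; rho = -0.72, permutation p = 0.0103, adjusted p = 0.132) and r = 0.71 with the score of postmitotic neurons (permutation p = 0.00945, adjusted p = 0.0773; rho = 0.82, permutation p = 0.00183, adjusted p = 0.0823). Without the farthest libraries these were -0.65 and 0.78. The neuron relation was 0.87 in litter 2, 0.58 in litter 1, 0.78 in mutants and 0.49 in controls. Neuron markers summed to 3611 to 4496 CPM in mutants, against 3862 to 5227 CPM in controls, with Tubb3 listed at 0. Chd5 had r = -0.63 with the progenitor score (permutation p = 0.026, adjusted p = 0.107; rho = -0.52, permutation p = 0.0909, adjusted p = 0.249), and -0.38 without mutant 4 and control 2. Ino80 had r = -0.72 with the interneuron score (permutation p = 0.00808, adjusted p = 0.0773; rho = -0.58, permutation p = 0.0515, adjusted p = 0.198), and -0.65 without control 1 and control 4. Progenitor and neuron markers thus varied across the same libraries as Smarca2. Intermediate progenitor markers varied across the same libraries as Smarca4, and also as Chd3, Chd4 and Smarca1. The part of these markers in the Smarca2/Smarca4 ratio was not tested.

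**Figure D5:**
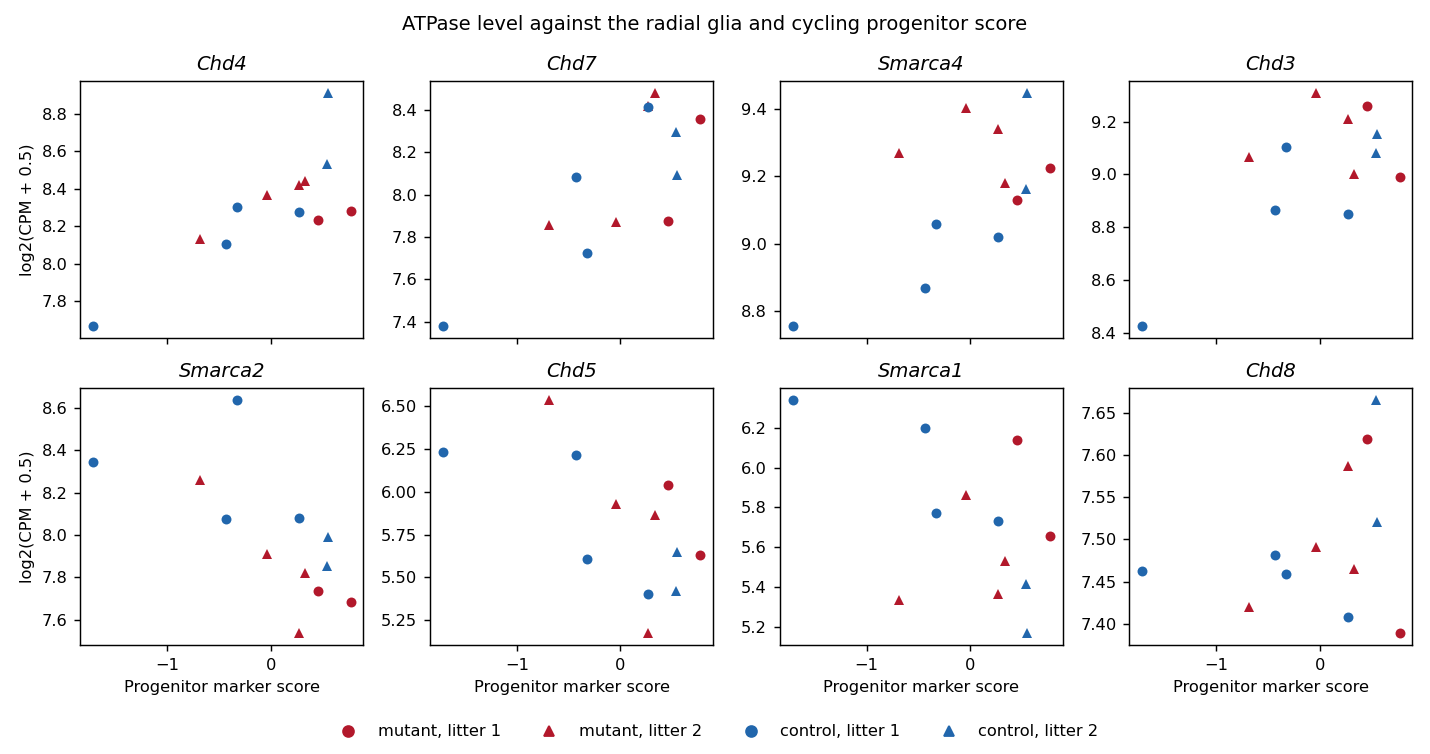
Log2(CPM + 0.5) of 8 ATPases (y axis) against the mean z-score of 10 radial glia and cycling progenitor markers (x axis), one point per library with genotype by colour and litter by symbol. Chd4 (r = 0.79) and Chd7 (r = 0.78) rise to the right and Smarca2 (r = -0.68) falls; control 2, at -1.72, stands far to the left in every panel.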

How the data were processed

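ClickSeq libraries with unique molecular identifiers were made from rRNA-depleted total RNA of 12 cortices, per the labels' protocols. The authors deposited whole-number counts per gene for each library, and per the submitters' processing notes reads were handled on mm10 with STAR 2.5.2a, UMI-tools 0.5.3 and HTSeq 0.6.1p1, among others. Neither label nor header states the strand setting or annotation release, so reads of a gene and an overlapping one cannot be told apart (at most 5.77% of a motor's exon length, in Chd8). Rows that name no gene, left out of all totals, held 20.7% to 31.6% of counts.

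Symbols came from GENCODE M21 (47734 of 51912 identifiers matched with version, 3985 without, 193 unmatched). Counts were tested with edgeR 4.0.16 (TMM, filterByExpr with a minimum count of 10, robust quasi-likelihood, terms for litter, sex and genotype), adjusted by Benjamini-Hochberg over 10678 genes, a procedure tested on simulated data. CPM were log2-transformed with a pseudocount of 0.5 for correlations (100000 permutations). Depth limits precision, since the scarcest gene had 31 counts in one library. DESeq2 1.42.0, limma 3.58.1 and other scalings, filters, depths and left-out libraries were alternatives. Labels name each library as a separate sample of 2 litters and 1 batch, and p-values measure the spread between these embryos. Named genes were the 10 motors, Arid1a, 16 partners chosen whatever their result, and any partner called. The members and all lists were chosen with earlier results of these data known. Libraries are numbered in accession order within genotype.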

Additional observations from a re-analysis of the deposited data

How the results depend on the processing

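Of 270 fits of the 10 motors between genotypes under 27 alternatives each, 251 kept direction and side of the threshold and 19 changed sign, all of values whose intervals include 0. 0 motors were called under any of them. Sign changes came at equal depth (Smarca1 -0.038, Smarca4 -0.036, Smarca5 -0.029), in females alone (Chd8 0.043, Smarca4 -0.000325), in litter 1 alone (Chd8 0.088), in litter 2 alone (Ino80 0.053, Smarca2 0.011, Smarca4 -0.037, Smarca5 -0.021), without the litter and sex terms (Chd7 0.14, Smarca1 -0.18), without litter (Smarca1 -0.038), without sex (Chd7 0.092) and without the 2 shallowest libraries (Chd7 0.012, Smarca4 -0.0069). Leaving out 1 library, Chd7 ran from -0.32 to 0.026 and Chd8 from -0.071 to 0.04015. Smarca1/Smarca5 and Chd7/Chd8 turned in females alone (0.10 and -0.10) and with litter and sex terms (0.084 and -0.069). The Chd5/Chd4 ratio turned at equal depth (-0.092) and in litter 1 (-0.20), and ran from -0.0778 to 0.32 without 1 library; Smarca1/Smarca5 turned in litter 2 (0.26), and by litter was -0.54 at equal depth, no longer past the threshold. Chd7 and Chd8 correlated at -0.067 to 0.21 without 1 library.

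Counts of called genes moved. Between genotypes (23) they were 95 with DESeq2, 261 with no filter, 44 in females, 5 in litter 1, 64 in litter 2, 141 without litter and sex, 77 without sex, 38 with a striatum score as covariate, 0 without the 2 shallowest libraries and 6 (without mutant 2) to 55 (without control 4) without 1 library. By litter (140) they were 263 with DESeq2, 593 with no filter, 67 at equal depth, 45 without the 2 shallowest and 27 (without control 5) to 212 (without control 4) without 1 library. Motors called by litter (0) were 1 with DESeq2, 2 with no filter and 0 to 1 (without control 4) without 1 library. By sex (1) they were 2 with DESeq2, 76 with no filter, 5 without the 2 shallowest and 1 to 17 (without control 1) without 1 library. For the interaction (0) they were 6 with DESeq2, 75 with no filter, 1 at equal depth and 0 to 1 without 1 library. Per kb of the longest transcript the level was 72.6 for Chd3, 26.9 for Chd7, 21.2 for Chd8, 11.1 for Smarca1, 43.9 for Smarca2 and 12.7 for Smarca5. The cause of these shifts was not tested. No paired analysis was possible because replicate numbers only follow accession order. Correlation alternatives, leave-one-out correlations, litter ratios and ratios by sex were chosen after seeing the data.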
